A study of Homo sapiens with 9 samples.

Results

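The serpins are a superfamily of proteins that mostly inhibit serine proteases, and here they were taken as every gene whose annotated symbol begins with SERPIN and that has a probe set of its own. This gave 31 genes out of 19775 genes with a single-gene probe set on the Affymetrix U133 Plus 2.0 array. The 31 genes were read by 49 such probe sets, 22 of them by 1 probe set each, and a gene with several is represented by whichever had the highest mean signal over the 9 arrays. A further probe set shared by SERPINB3 and SERPINB4 was set aside. Family genes with no probe set of their own in the probe table were not analysed here. SERPINA2 and SERPINB9P1 are annotated as transcribed pseudogenes, and the other 29 genes as protein coding.

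RNA was measured in stable clones of MDA-MB435S, a human metastatic melanoma cell line, with 3 arrays each of cells carrying an empty vector (EV), wild-type WWOX (WWOX) or WWOX with the WFPA mutation (WFPA), which disrupts the first WW domain and with it the binding of partner proteins. WWOX encodes an oxidoreductase with WW domains that acts as a tumor suppressor. Per the labels the clones were made with the pDEST12.2 vector, described as lentiviral, and selected with G418. How many clones stand behind a group, and whether its 3 arrays come from separate cultures, is not given in the sources used here. The p-values below hence reflect array-to-array spread alone, which may be technical, and a clone and its construct cannot be told apart. In the labels the vector field names wild-type WWOX for the arrays titled EV(wox+) and no construct for those titled wox5, against the titles, which were used here. At the brightest WWOX probe set the mean log2 expression was 8.94, 10.24 and 10.66 in EV, WFPA and WWOX cells, and at a dimmer one 4.49, 7.64 and 8.18. WWOX cells lay above EV cells by 1.72 and 3.68 at these probe sets (limma adjusted p = 2.95e-04 and 3.45e-06). The other 3 WWOX probe sets do not run this way throughout, with means of 9.11, 8.38 and 8.87 at the first, 5.98, 5.98 and 6.11 at the next and 3.91, 5.50 and 5.13 at the last. There WWOX minus EV was -0.23, 0.12 and 1.23 (limma adjusted p = 0.462, 0.527 and 0.0953). The differences under an adjusted p of 0.05 thus follow the titles, but the conflict in the labels remains.

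A serpin offers its target an exposed reactive centre loop as bait. When the protease cuts the loop, the serpin folds into a more stable form and traps the enzyme in a covalent complex, so that each molecule acts once. Extracellular serpins control coagulation, fibrinolysis, complement and inflammation, the members of clade B act mainly inside cells against proteases released from granules and lysosomes, and a few members, such as the collagen chaperone SERPINH1 and the secreted SERPINF1, do not inhibit proteases. In tumors, serpins that act on the plasminogen activators and thrombin are studied for their part in matrix turnover, migration and vessel growth.

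Of the 31 serpin genes 5 changed in at least 1 of 4 comparisons and 26 in none, where a called change is at least 2-fold with an adjusted p (limma, Benjamini-Hochberg over 54613 probe sets) under 0.05. The share of all genes is given by comparison and not for the 4 joined, so the count of 5 has no such share beside it. When WWOX cells were set against both other groups, whose average is meant wherever both are named, 4 genes were called, SERPINE2 and SERPINI1 higher and SERPINB7 and SERPINB8 lower, where 4.01% of all genes were called. Against EV cells alone 4 were called, SERPINE2 higher and SERPINB7, SERPINB8 and SERPINF1 lower (3.9% of all genes). Against WFPA cells alone 4 were called, the same genes as against the average (4.73% of all genes). Between WFPA and EV cells 1 gene was called, SERPINF1, which was lower in WFPA cells (2.23% of all genes). Thus 12.9% of the serpin genes were called in each comparison with WWOX cells and 3.23% between WFPA and EV cells. The comparisons share arrays and are not independent. The median log2 difference over the 31 genes was 0.03 for WWOX cells against the average of both other groups, beside 0.04 over all genes.

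**Figure D1:**
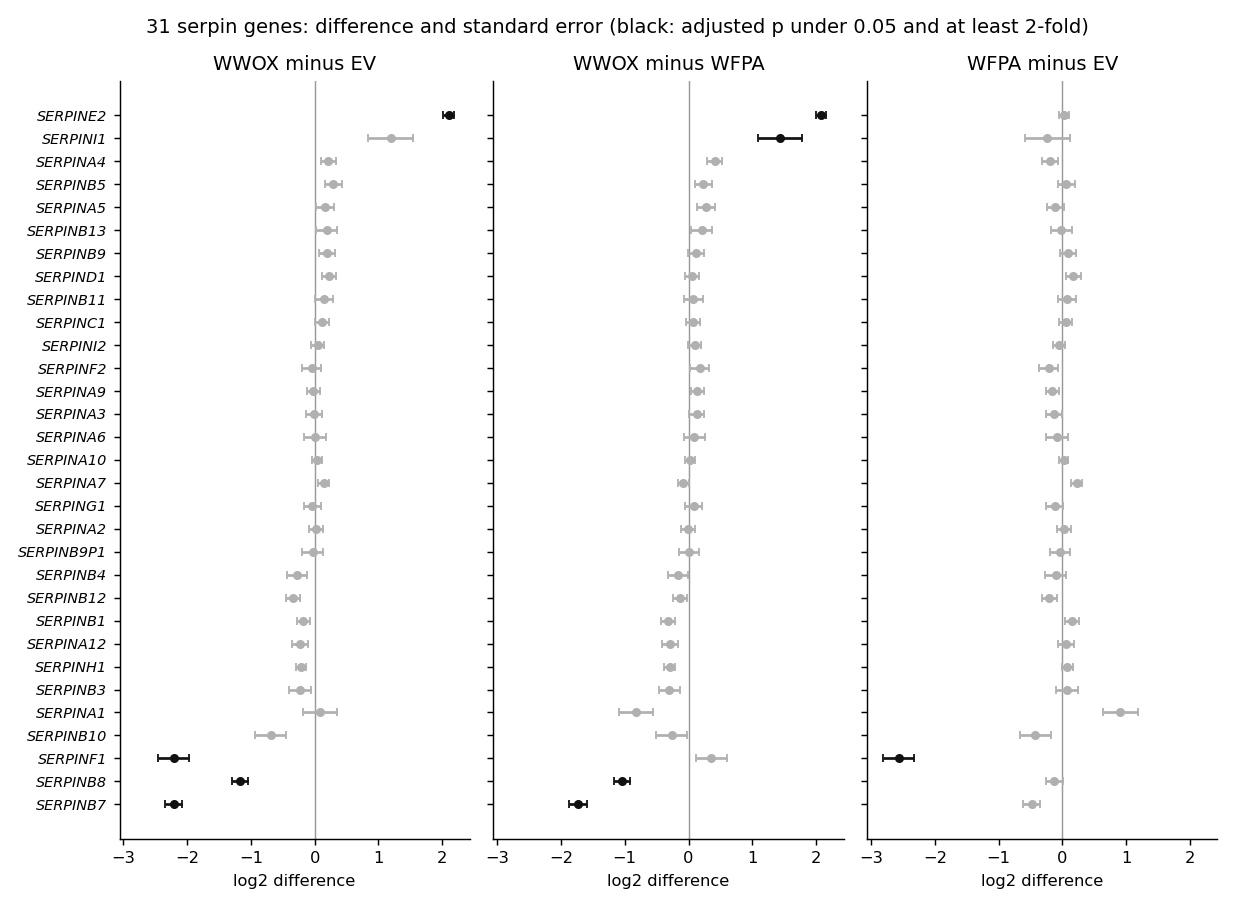
Log2 difference (x axis) of the 31 serpin genes (y axis, ordered by the difference of WWOX from the average of EV and WFPA) for WWOX minus EV, WWOX minus WFPA and WFPA minus EV, with bars of 1 standard error. Black points are called and grey points are not. SERPINE2 lies at 2.10 and 2.08 in the panels of WWOX and SERPINB7 at -2.21 and -1.73. SERPINF1 lies level with SERPINB7 for WWOX minus EV (-2.21) and stands apart for WFPA minus EV (-2.57).

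SERPINE2, also known as protease nexin-1, is a secreted and matrix-bound inhibitor of thrombin, urokinase and plasmin. Its log2 expression was 12.15, 12.01 and 12.03 on the EV arrays, 12.04, 12.13 and 12.08 on the WFPA arrays and 14.13, 14.15 and 14.21 on the WWOX arrays. All 3 WWOX arrays lay above the 6 others, and the EV and WFPA arrays overlapped. The gene was 4.25-fold higher in WWOX cells than in both other groups on average, which is 2.09 on the log2 scale (standard error 0.0705, limma adjusted p = 3.18e-07). It was 4.28-fold higher than in EV (adjusted p = 8.03e-07) and 4.22-fold higher than in WFPA cells (adjusted p = 1.01e-06). WFPA and EV cells differed by 0.02 (standard error 0.0814, adjusted p = 0.933).

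A dimmer SERPINE2 probe set gave the same direction. It ranged from 7.49 to 7.80 on the EV arrays, from 7.71 to 7.80 on the WFPA arrays and from 10.74 to 10.92 on the WWOX arrays. The difference of WWOX cells from both other groups was 3.12 there (standard error 0.0878, adjusted p = 1.24e-07 from limma), and WFPA minus EV was 0.12 (adjusted p = 0.606). Both probe sets were called in all 3 comparisons with WWOX cells, and their sizes differ, 4.25-fold at the brighter and 8.71-fold at the dimmer.

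SERPINI1, neuroserpin, is an inhibitor of tissue plasminogen activator secreted by neurons. Its log2 expression was 5.84, 4.41 and 5.44 on the EV arrays, 4.74, 4.69 and 5.54 on the WFPA arrays and 6.59, 6.27 and 6.40 on the WWOX arrays. Every WWOX array lay above every other array, but the spread in EV cells (SD 0.734, n = 3) and WFPA cells (SD 0.478, n = 3) was larger than in WWOX cells (SD 0.162, n = 3). WWOX cells lay 1.31 above both other groups (standard error 0.303, adjusted p = 0.0184 from limma) and 1.43 above WFPA cells (standard error 0.35, adjusted p = 0.0235). The difference from EV cells, 1.19 (standard error 0.35, adjusted p = 0.0601), did not pass. The call against both groups was lost without WWOX replicate 1 (adjusted p = 0.0519) or WWOX replicate 3 (adjusted p = 0.0547). That against WFPA was lost without either of these (adjusted p = 0.0547 and 0.0568) and without WFPA replicate 1 (0.0817) or WFPA replicate 2 (0.0851). The difference from EV cells lay close to the limit, and passed without EV replicate 1 (adjusted p = 0.0346), with limma-trend (0.0425), with a filter on dim probe sets (0.0362) and where all probe sets of each gene were averaged (0.0364).

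SERPINB7, megsin, is an intracellular serpin known from mesangial cells and the upper epidermis, where its loss underlies a palmoplantar keratosis. Its log2 expression was 10.83, 10.76 and 10.80 on the EV arrays, 10.28, 10.44 and 10.23 on the WFPA arrays and 8.84, 8.62 and 8.29 on the WWOX arrays. The 3 groups did not overlap, with EV highest and WWOX lowest. WWOX cells lay 3.92-fold below both other groups, or -1.97 on the log2 scale (limma adjusted p = 8.14e-06, standard error 0.118). The fold was 4.64 against EV (adjusted p = 1.20e-05) and 3.32 against WFPA cells (adjusted p = 5.09e-05). WFPA minus EV was -0.48 (standard error 0.136, adjusted p = 0.0751), which did not pass.

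SERPINB8 is an intracellular serpin that inhibits the proprotein convertase furin. On the log2 scale it measured 8.53, 8.35 and 8.44 on the EV arrays, 8.18, 8.40 and 8.36 on the WFPA arrays and 7.49, 7.31 and 7.01 on the WWOX arrays. All WWOX arrays lay below the 6 others. WWOX cells lay 2.15-fold below both other groups, or -1.11 on the log2 scale (limma adjusted p = 2.27e-04, standard error 0.112), with -1.17 against EV (adjusted p = 5.06e-04) and -1.04 against WFPA (adjusted p = 7.83e-04). WFPA minus EV was -0.13 (adjusted p = 0.678). The change lay close to the 2-fold limit. Without WWOX replicate 3 it was -0.98 against both groups and -0.91 against WFPA, both under 2-fold with adjusted p-values of 5.06e-04 and 0.00122. The other SERPINB8 probe set, at 2.75 to 3.55 over the 9 arrays and so below the lower quartile of every array (4.23 to 4.34), was not called, and the mean of both probe sets differed by -0.63.

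SERPINF1, the secreted pigment epithelium-derived factor, restrains vessel growth and does not inhibit proteases. On the log2 scale it measured 6.37, 6.56 and 7.44 on the EV arrays, 4.31, 4.32 and 4.03 on the WFPA arrays and 4.70, 4.58 and 4.47 on the WWOX arrays. EV cells were high, and the arrays of both groups with a WWOX construct lay below every EV array. WFPA cells lay 2.57 below EV cells on the log2 scale (-2.57, limma adjusted p = 4.29e-04 with a standard error of 0.243) and WWOX cells differed from EV by -2.21 (standard error 0.243, adjusted p = 4.89e-04). WWOX minus WFPA was 0.36 (standard error 0.243, adjusted p = 0.348), although their arrays did not overlap. Among the 31 serpin genes this was the only one called between WFPA and EV cells. The WFPA arrays lay near the lower quartile, and the deposited values carry no background level, so the size of the fall is uncertain.

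**Figure D2:**
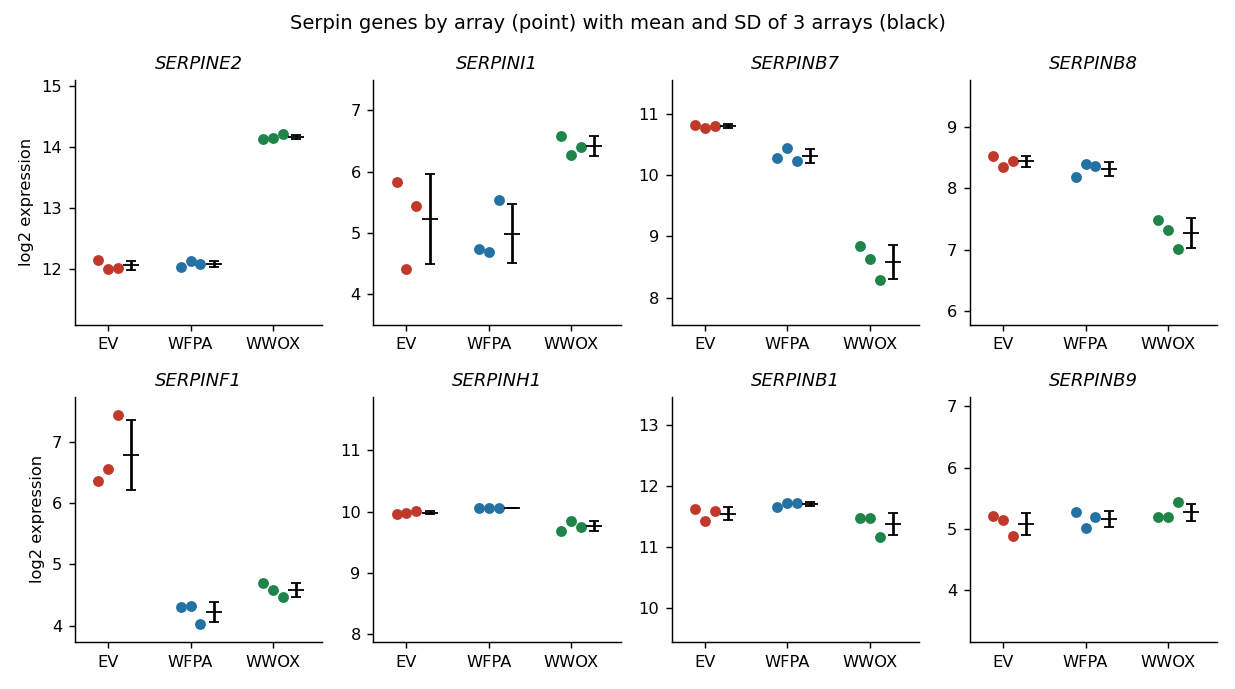
Log2 expression (y axis, each panel spanning the same number of log2 units) of 8 serpin genes on each array, with 1 point per array and, in black, the mean and SD of 3 arrays, in EV, WFPA and WWOX cells (x axis). SERPINE2 and SERPINI1 lie higher and SERPINB7 and SERPINB8 lower in WWOX cells than on any other array, SERPINF1 is high in EV cells alone, and SERPINH1, SERPINB1 and SERPINB9 differ by less than 2-fold.

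Members with roles in collagen folding and in protection from granule proteases differed by less than 2-fold between the groups. SERPINH1, or HSP47, is the chaperone of the endoplasmic reticulum that binds newly made collagen. It measured 9.96, 9.97 and 10.02 on the EV arrays, 10.06 on each of the WFPA arrays and 9.69, 9.85 and 9.75 on the WWOX arrays. The WWOX arrays lay below the 6 others, with an average difference of -0.26 (1.20-fold, standard error 0.0687, limma adjusted p = 0.0327). It was the only gene among the 26 without a call to pass the adjusted p against both other groups together, and again against WFPA cells alone (-0.30, adjusted p = 0.0329).

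SERPINB1, which inhibits neutrophil elastase and cathepsin G, had group means of 11.55 ± 0.108, 11.70 ± 0.0387 and 11.38 ± 0.182 in the order EV, WFPA, WWOX (SD, n = 3 arrays). The difference of WWOX cells from both other groups was -0.25 (standard error 0.0949, adjusted p = 0.107 from limma). At 3 dimmer SERPINB1 probe sets the difference was -0.31, -0.22 and -0.24, of which the first passed the adjusted p (0.0204) at under 2-fold. SERPINB9, the intracellular inhibitor of granzyme B, was 5.21, 5.14 and 4.88 on the EV arrays, 5.27, 5.02 and 5.19 on the WFPA arrays and 5.19, 5.19 and 5.43 on the WWOX arrays. These arrays overlapped between all groups, and WWOX cells lay 0.15 above both other groups (standard error 0.107, adjusted p = 0.37 from limma). At 2.36 to 3.37, both dimmer SERPINB9 probe sets were not called.

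SERPINA1, alpha-1-antitrypsin, is the main plasma inhibitor of neutrophil elastase. It measured 5.24, 4.16 and 5.20 on the EV arrays, 5.55, 6.02 and 5.76 on the WFPA arrays and 4.77, 5.16 and 4.92 on the WWOX arrays, so that the WFPA arrays lay above all the others. WFPA minus EV was 0.91 (standard error 0.272, adjusted p = 0.0921 from limma) and WWOX minus WFPA was -0.83 (adjusted p = 0.0717), and neither passed. A dimmer SERPINA1 probe set ran the same way, with WFPA minus EV at 1.36 (adjusted p = 0.0714) and WWOX minus WFPA at -1.24 (adjusted p = 0.0546), and was not called either. The other 2 SERPINA1 probe sets did not follow, with WFPA minus EV at 0.11 and 0.15 and WWOX minus WFPA at 0.06 and 0.07. SERPINA1 and SERPINB1 were given in full after their values were seen.

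The remaining serpins were mostly dim. Over the 31 genes, 14 lay above the lower quartile on all 9 arrays, 8 on some and 9 on none, and only SERPINA5, SERPINB1, SERPINB7, SERPINB8, SERPINE2 and SERPINH1 lay above the median (6.03 to 6.05) on every array. A difference at a level under the lower quartile says little about the gene, since these data give no background. Of the 10 genes of clade A, which holds plasma inhibitors and the hormone carriers SERPINA6 and SERPINA7, 4 lay above the lower quartile on every array and 4 on none, and none was called. SERPINA5, the protein C inhibitor, had means of 6.80, 6.69 and 6.96 in EV, WFPA and WWOX cells. SERPINA4, kallistatin, had means of 5.24, 5.05 and 5.46, and WWOX minus both other groups was 0.31 (standard error 0.106, adjusted p = 0.0786 from limma).

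The plasma regulators of coagulation, fibrinolysis and complement were likewise not called. Antithrombin (SERPINC1) had means of 4.81, 4.86 and 4.93 in EV, WFPA and WWOX cells, alpha-2-antiplasmin (SERPINF2) 5.61, 5.40 and 5.57, and the complement inhibitor SERPING1 5.23, 5.11 and 5.19. Heparin cofactor II (SERPIND1) lay under the lower quartile on every array, as did SERPINI2, which is expressed in the pancreas. Over the 26 genes without a call, differences of WWOX cells from both other groups ran from -0.48 (SERPINB10) to 0.31 (SERPINA4). Those between WFPA and EV cells ran from -0.42 (SERPINB10) to 0.91 (SERPINA1). WWOX minus EV ran from -0.69 (SERPINB10) to 0.29 (SERPINB5), and WWOX minus WFPA from -0.83 (SERPINA1) to 0.41 (SERPINA4).

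SERPINB7 and SERPINB8 lie in a run of clade B genes on chromosome 18, of which 9 were measured. The other 7 genes of the run, among them the tumor-associated SERPINB3, SERPINB4 and SERPINB5 (maspin), lay under the lower quartile on at least 1 array, and none was called. SERPINB10, which lies between SERPINB7 and SERPINB8, had means of 3.87, 3.45 and 3.19 in EV, WFPA and WWOX cells, with WWOX minus EV at -0.69 (standard error 0.244, adjusted p = 0.113 from limma). SERPINB3 and SERPINB4 are near-identical copies, so that their probe sets may not tell them apart.

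On either side of the run 8 measured genes were read as well. Of these 16, CDH19, a cadherin gene of the neural crest lineage beyond the SERPINB8 end, was called in WWOX cells against both other groups and was 2.07 higher (standard error 0.163, adjusted p = 4.68e-05 from limma). Its EV and WFPA means, 3.26 and 3.34, lay under the lower quartile. PHLPP1, which encodes a phosphatase, had lower WFPA than EV values (-1.22, adjusted p = 4.87e-04 from limma). In the comparisons that called CDH19 and PHLPP1 here, 4.01% and 2.23% of all genes were called. The genes next to the run on both sides, VPS4B and LINC00305, were not called (0.08 and -0.02 in WWOX cells against both other groups).

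**Figure D3:**
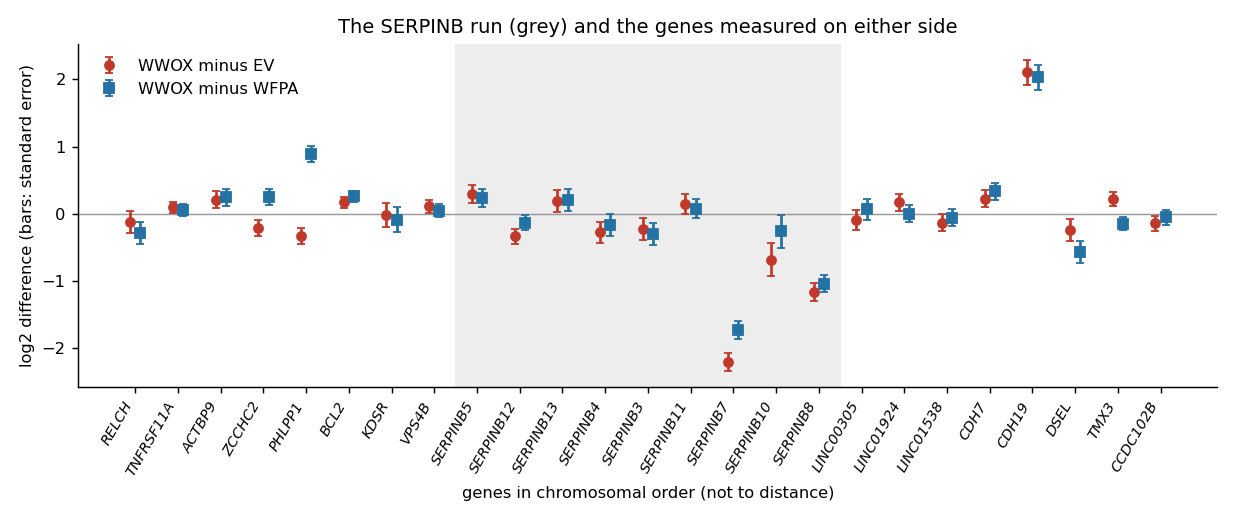
Log2 difference (y axis, bars of 1 standard error) for WWOX minus EV (circles) and WWOX minus WFPA (squares) in the 9 measured clade B serpins of chromosome 18 (grey band) and 8 measured genes on each side, in chromosomal order and not to distance (x axis). SERPINB7 (-2.21 and -1.73) and SERPINB8 (-1.17 and -1.04) lie low, and CDH19 (2.11 and 2.03) lies high.

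The DNA before the annotated starts of the serpin genes was read for short motifs, which, like the genes shown, were chosen after the values were seen. Windows of 250 upstream bases from RefSeq (GRCh38.p14) were held for 23 of the 31 genes, 33 windows in all, and were searched on both strands. The letters TGACTCA, a site of the AP-1 factors, were in 4.2% of all 35116 windows and in 3 of the 23 genes, SERPINB7, SERPINB8 and SERPINB13. A gene may have several windows, so a share of windows and a count of genes are not directly comparable, here and below. The 2 serpins of chromosome 18 that fell in WWOX cells are shown with 8 bases on each side, and capitals mark the match, which reads on the opposite strand. The first SERPINB7 stretch lies at chr18:63775371-63775393, the other at chr18:63777728-63777750 and the SERPINB8 stretch at chr18:63970045-63970067, all on the plus strand.
SERPINB7, first inner start: ctgtgctcTGAGTCAtagggaag
SERPINB7, next inner start: ggagtgtcTGAGTCAgaggcttt
SERPINB8: aacggttcTGAGTCAtctgccgg
In SERPINB7 the match lies at -39 to -33 and at -45 to -39, where -1 is the base before each start, and both starts lie inside the gene, downstream of its outermost one, whose window has no such match. In SERPINB8 it lies at -28 to -22. SERPINB13, which also holds the letters, lay at means of 4.16, 4.14 and 4.34 in EV, WFPA and WWOX cells and was not called.

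The letters CATGTG, one form of the E-box that basic helix-loop-helix factors such as MITF bind, were in 9.42% of all windows and in 4 of the 23 genes. Among these genes are the near-identical copies SERPINB3 and SERPINB4, with a match starting at -229 in both. SERPINE2 is shown because 1 of its windows, before a start inside the gene on the minus strand of chromosome 2, held 5 matches, a number that 4 of all windows reached, itself included (0.0114%). Motif and gene were chosen after the values were seen, so this share does not measure chance. Matches starting at -233, -156 and -79 are evenly spaced, and the letters around the last 2 are alike. The 5 may therefore be copies of a repeat rather than separate sites, which was not tested. Capitals mark the matches, which read CACATG on the gene's strand. The stretches lie, in order, at chr2:224031698-224031719, chr2:224031621-224031650, chr2:224031544-224031565 and chr2:224031479-224031495.
SERPINE2, -241 to -220: gtttcagtCACATGctgttcgc
SERPINE2, -172 to -143: tgctaagtCACATGgtCACATGctcgtccc
SERPINE2, -87 to -66: cacgtggtCACATGcccttccg
SERPINE2, -17 to -1: tcccaaatCACATGgtc
The other SERPINE2 window held none. The letters ACAAAG, bound by SOX factors, were in 13.7% of all windows and 7 of the 23 genes, and TATAAA in 10.7% and 6. These matches describe the sequence, and no binding was measured here.

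MITF and SOX10, which direct the melanocyte lineage, were among 5 of 14 measured melanocytic genes that were called in WWOX cells against both other groups, all higher, and none of the 14 was called between WFPA and EV cells. The 5 are 35.7% of the list, beside 4.01% of all genes. Summed over the 14 genes, the level was 13.33 to 13.42 on the EV arrays, 13.29 to 13.37 on the WFPA arrays and 14.68 to 14.83 on the WWOX arrays (log2 of the summed linear values). TYRP1 lay under the lower quartile on every array, and MLANA and PMEL, at means of 4.38 to 4.43 and 5.77 to 5.91, were not called. Of 16 markers of other cells none was higher and 4 were lower in WWOX cells (25%, beside 4.01% of all genes), namely the keratins KRT8 and KRT18, GATA3 and PTPRC. The summed level of the 16 was 13.67 to 13.79 on the EV, 13.41 to 13.62 on the WFPA and 12.22 to 12.37 on the WWOX arrays, with EPCAM and CD3E under the lower quartile on every array. Such sums follow the brightest genes of a list. The median log2 difference of WWOX cells from both other groups was 0.02 over the 16 markers and 0.41 over the 14 melanocytic genes. Over all genes it was 0.04. Both sums therefore moved with the SERPINE2 and SERPINB7 values, and their part in those results was not tested.

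Among 55 measured serine proteases that serpins inhibit or that act beside them, 1 was called in WWOX cells against both other groups, higher, and 1 between WFPA and EV cells, also higher. Each is 1.82% of the list, beside 4.01% and 2.23% of all genes. PRSS12, neurotrypsin, a protease of synapses, rose from 3.33 ± 0.117 in EV and 3.29 ± 0.15 in WFPA to 5.35 ± 0.414 in WWOX cells (SD, n = 3 each), by 2.04 (standard error 0.164, adjusted p = 5.32e-05 from limma). Both lower PRSS12 levels lay under the lower quartile. C1S, the complement protease that SERPING1 inhibits, had a WFPA minus EV difference of 1.69 (adjusted p = 6.56e-04). The plasminogen activators, targets of SERPINE2 and SERPINI1 and picked for that role after their values were seen, were not called. Urokinase (PLAU) had means of 6.84, 7.14 and 6.48 in EV, WFPA and WWOX cells, and WWOX minus both other groups was -0.51 (adjusted p = 0.0237, under 2-fold). Tissue plasminogen activator (PLAT) had means of 8.76, 7.88 and 8.23, with WFPA minus EV at -0.89 (adjusted p = 0.00118, under 2-fold).

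Of 13 cysteine proteases, some of which clade B serpins inhibit, 1 was higher and 2 lower in WWOX cells against both other groups. This is 23.1% of the list, beside 4.01% of all genes. The inflammatory caspases CASP1 and CASP4 differed by -2.20 (adjusted p = 2.17e-05 from limma) and -1.46 (adjusted p = 1.10e-05), and the lysosomal cathepsin CTSH by 1.02 (adjusted p = 4.97e-04). Against WFPA cells alone 3 genes were lower and 0 higher (23.1%, beside 4.73% of all genes), so CTSH was not called there. Between WFPA and EV cells 1 was called (7.69%, beside 2.23% of all genes), CTSS, which was higher by 1.33 (adjusted p = 0.0125).

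Of 19 measured cofactors, cell surface binders and receptors, 2 were higher and 2 lower in WWOX cells against both other groups. They make up 21.1% of the list, beside 4.01% of all genes. Between WFPA and EV cells 10.5% of the list was called, beside 2.23% of all genes. F2RL2, a receptor that takes part in the response to thrombin, had means of 5.50, 7.71 and 10.08 in EV, WFPA and WWOX cells, with WWOX minus both other groups at 3.48 (adjusted p = 3.18e-07 from limma) and WFPA minus EV at 2.21 (adjusted p = 3.49e-05). Among the heparan sulfate proteoglycans, whose chains bind SERPINE2 and antithrombin, SDC3 was higher by 3.16 (adjusted p = 1.73e-05) and SDC2 lower (-1.03, adjusted p = 0.0258). VLDLR, which takes up serpin-protease complexes, was lower (-1.79, adjusted p = 2.04e-05), and its relative LRP1 was called against EV cells alone (1.74, adjusted p = 0.0377).

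Of the 27 genes of collagen chains and collagen folding that act beside SERPINH1, 2 were higher and 1 lower in WWOX cells against both other groups. These are 11.1% of the list, beside 4.01% of all genes. All 3 encode collagen chains, COL6A1 (1.65, adjusted p = 3.17e-05 from limma), COL1A2 (1.35, adjusted p = 2.31e-05) and COL5A1 (-1.05, adjusted p = 0.00731). Against WFPA cells alone 1 gene of the list was called higher and 0 lower (3.7%, beside 4.73% of all genes). COL5A1 and at least 1 of COL6A1 and COL1A2 were hence not called against WFPA cells. WFPA and EV cells too differed in COL1A2 (1.52, adjusted p = 9.96e-05) and in COL5A1 (-1.35, adjusted p = 0.00906). In that comparison 14.8% of the list was called, beside 2.23% of all genes.

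Of 36 measured protease inhibitors of other families, 1 was higher and 2 were lower in WWOX cells against both other groups. The share called was 8.33% there and between WFPA and EV cells, beside 4.01% and 2.23% of all genes. TIMP3, the matrix-bound inhibitor of metalloproteases, had means of 8.82 ± 0.116, 10.37 ± 0.0956 and 12.10 ± 0.0694 in EV, WFPA and WWOX cells (SD of 3 arrays), which put WWOX cells 2.51 above both other groups (standard error 0.0832, adjusted p = 2.91e-07 from limma). TFPI, the Kunitz-type inhibitor of tissue factor, was lower (-1.23, adjusted p = 4.35e-05), and so was the cystatin CST7 (-2.50, adjusted p = 6.57e-04). The median log2 differences of these 5 lists in WWOX cells against both other groups, in the order given, were 0.16, -0.05, 0.09, 0.15 and 0.14, beside 0.04 over all genes.

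**Figure D4:**
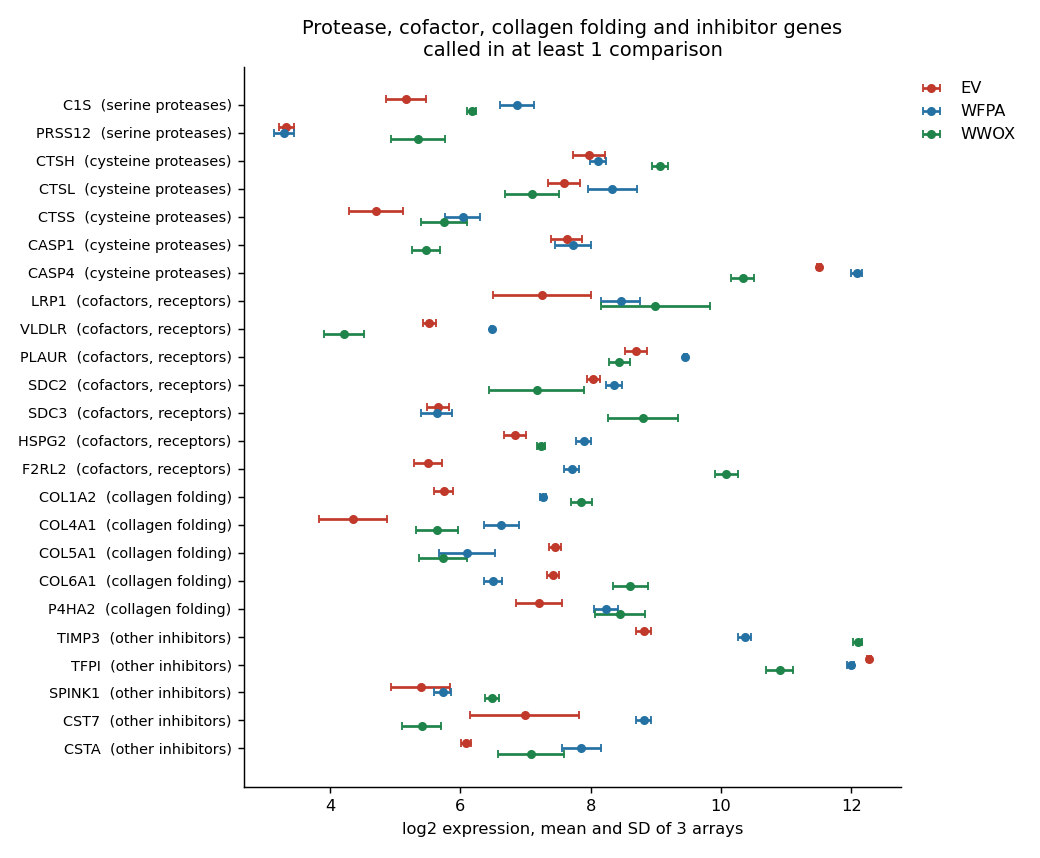
Log2 expression (x axis) as mean and SD of 3 arrays in EV, WFPA and WWOX cells for the genes of the protease, cofactor, collagen and inhibitor lists that were called in at least 1 of the 4 comparisons (y axis). F2RL2 and TIMP3 are lowest in EV and highest in WWOX cells, SDC3 and PRSS12 are higher in WWOX cells than in both others, and CASP1 and TFPI are lower.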

How the data were processed

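RNA of 9 samples was hybridized to Affymetrix U133 Plus 2.0 arrays. Partek Genomics Suite was used by the authors to process them, and log2 values were deposited; the background correction and normalization are not given in the sources used here, and nothing was normalized again. Of 54675 probe sets 62 controls were left out and 54613 tested (41091 with a single gene, 1801 with several, 11721 unnamed). In limma 3.58.1 (R 4.3.3) 1 mean was fitted per group over all 9 arrays (6 residual and 3.04 prior degrees of freedom). Calls needed a 2-fold change and an adjusted p (Benjamini-Hochberg) under 0.05. In WWOX comparisons with both other groups, the reference was the mean of their group means. Precision is limited by the number of arrays. The fit was tested on simulated data.

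Values are given in full for called serpins and for SERPINE2, SERPINF1, SERPINH1, SERPINI1 and SERPINB9, and from related lists for up to 4 called genes. The members and lists were chosen with earlier results of these data known. Alternatives were other variance priors, adjustments, fold limits, a filter on dim probe sets, normalizations, designs, probe sets and arrays left out. Promoter windows came from RefSeq (GRCh38.p14). Figures used matplotlib 3.10.9 in Python 3.11.15.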

Additional observations from a re-analysis of the deposited data

How the results depend on the processing

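No called serpin value turned its direction under any alternative run. Other priors, adjustments, fold limits, the filter and other designs left the log2 difference as it was, so they could not turn it. Other normalizations, probe sets and left-out arrays could, except that genes with 1 probe set keep it under another choice of probe set. The number of serpin genes called against the mean of EV and WFPA, against EV, against WFPA and between WFPA and EV (4, 4, 4 and 1) became 2, 2, 2 and 0 with Bonferroni adjustment, which kept SERPINE2 and SERPINB7. With the 4-fold limit of the methods it was 1 against the mean and 1 against WFPA, SERPINE2 in both. Leaving out 1 array at a time gave 2 to 5 against the mean, 4 to 5 against EV, 2 to 4 against WFPA and 1 between WFPA and EV, with both counts of 2 without WWOX replicate 3 and the counts of 5 without EV replicate 1. A replicate block gave 4, 5, 4 and 1, the added call being SERPINI1 against EV (adjusted p = 0.0415 from limma). It was also called in 4 other settings (0.0346 to 0.0425) and not in the others run. Arrays with the same number did not deviate together over all probe sets (0 of 9 pairs correlated over 0.1, -0.0521 to 0.0348). These values thus show no sign of a pairing by number, but cannot exclude one. SERPINB8 lost its call against WFPA with quantile normalization (-0.97), and SERPINF1 reached 2-fold against the mean without EV replicate 1 (-1.03). Of 273 recomputed gene values 247 stayed on their side of the limits and 26 lost their call. Some of the 247 could not change, such as those with no fold limit, so this count is no measure of stability. Levels under the lower quartile limit what can be read of dim serpins.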
